A study of Mus musculus with 384 samples.

Results

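Reelin (Reln), its receptors Lrp8 (ApoER2) and Vldlr, its intracellular adaptor Dab1, fibronectin (Fn1), the hemicentins Hmcn1 and Hmcn2 and the muscle protein gene Igfn1 were followed through single retinal cells. These 8 genes, of 32813 in the tables, were listed by name because Reln, Igfn1, Fn1 and Hmcn2 had been seen to differ between groups of these same cells, so their differences between those groups are given as descriptions without a test. The cells came from 4 retinas of 2 mice at postnatal day 17, sorted by flow cytometry and amplified with Smart-seq2, a full-length cDNA method. All mice carried Kcng4-cre (Kcng4tm1.1(cre)Jrs), in which Cre recombinase is made from the locus of the potassium channel subunit Kcng4, and a reporter, Thy1-stop-YFP Line#1, that needs Cre to make yellow fluorescent protein, so the label marks cells with present or past Kcng4 activity that also drive the Thy1 cassette. There was no treatment. The retinas are named 1la, 1Ra, 2la and 2Ra by mouse (1 or 2) and by la or Ra, whose meaning is not given. Each retina filled its own plate of 96 wells, so a retina and its plate cannot be told apart, and the mouse (n = 2) is the replicate.

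Of 384 wells, 383 had values and 321 had at least 3000 genes with an expected count of 1 or more. Groups of cells were set by the marker genes Vsx1, Ddit4l and Sox6 at 20 TPM (a level per transcript length, scaled to the same total in every cell). Exactly 1 marker reached that level in 270 cells, giving 60 Vsx1-only, 59 Ddit4l-only and 151 Sox6-only cells. A further 33 cells had none of the markers and 18 had several, and 62 wells had fewer genes. The 3 groups were about equally deep, with median total counts of 1072600 in Vsx1-only, 1091480 in Ddit4l-only and 1067450 in Sox6-only cells. Few cells lay near the marker threshold: 2 cells had Vsx1 at 20 to 40 TPM and 2 at 10 to 20 TPM, and the numbers were 1 and 2 for Ddit4l and 7 and 5 for Sox6. Median Reln in the cells just inside and just outside was 124 and 65.5 TPM at the Vsx1 threshold, 0 and 74.3 TPM at the Ddit4l threshold and 77 and 354 TPM at the Sox6 threshold. In each group 8 to 10 of 12 bipolar cell markers had a median of at least 1 TPM, whereas none of 8 ganglion cell and none of 7 amacrine cell markers did. Rod transcripts were present in all groups, at summed means per retina of 956 to 3925 TPM in Vsx1-only, 756 to 2186 TPM in Ddit4l-only and 1326 to 2917 TPM in Sox6-only cells. Müller glia markers were also present, with a median of at least 1 TPM for Glul and Slc1a3 of 7 in Vsx1-only and Sox6-only cells and for Slc1a3 in Ddit4l-only cells. Their summed means per retina were 161 to 996 TPM in Vsx1-only, 79 to 233 TPM in Ddit4l-only and 164 to 302 TPM in Sox6-only cells. The cone marker Pde6h and the horizontal cell marker Calb1 passed that median in each group, and Slc4a3, another horizontal cell marker, in Sox6-only cells. Median total counts over all cells of a retina with at least 3000 genes were lower in the Ra retinas (759554 in 1Ra and 1052930 in 2Ra) than in the la retinas (1258580 in 1la and 1193940 in 2la).

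Reelin is a large secreted glycoprotein that binds Lrp8 and Vldlr on a receiving cell. Binding leads to phosphorylation of Dab1, an adaptor inside that cell, by Src family kinases, and the pathway is best known for positioning neurons in the cortex. In the mouse retina, loss of Reln or Dab1 is known to alter the rod pathway in the inner plexiform layer, where bipolar cells contact amacrine and ganglion cells. Fibronectin is a secreted matrix glycoprotein bound by integrins, and hemicentins are very large extracellular matrix proteins of immunoglobulin and EGF-like domains. Igfn1 also carries immunoglobulin and fibronectin type III domains, but in skeletal muscle its protein is known from the Z disc inside the fibre, so it is not counted here as a matrix protein.

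The promoters of Reln, Igfn1 and Hmcn2, 3 of the genes that differed between groups, are shown because they differ widely in base composition although Reln and Igfn1 were highest in the same cells. RefSeq promoter windows (build GRCm38.p6, 250 bases before to 50 after the start) matched 7 of the 8 genes. The gene spans given below are also RefSeq's, and those of Igfn1 and Hmcn2 reach further upstream than the start used for the window; for Igfn1 that start is the gene's first base in GENCODE M21. Capitals mark CG dinucleotides.
Reln, chr5:22344656-22344955, minus strand: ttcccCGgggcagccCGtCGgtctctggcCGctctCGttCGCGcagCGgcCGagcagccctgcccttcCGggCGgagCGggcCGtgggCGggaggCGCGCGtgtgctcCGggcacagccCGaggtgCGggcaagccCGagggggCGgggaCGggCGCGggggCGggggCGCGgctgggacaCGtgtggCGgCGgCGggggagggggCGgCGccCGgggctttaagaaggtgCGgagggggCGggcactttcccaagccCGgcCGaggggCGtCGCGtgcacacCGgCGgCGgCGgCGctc
Igfn1, chr1:136006293-136006592, minus strand: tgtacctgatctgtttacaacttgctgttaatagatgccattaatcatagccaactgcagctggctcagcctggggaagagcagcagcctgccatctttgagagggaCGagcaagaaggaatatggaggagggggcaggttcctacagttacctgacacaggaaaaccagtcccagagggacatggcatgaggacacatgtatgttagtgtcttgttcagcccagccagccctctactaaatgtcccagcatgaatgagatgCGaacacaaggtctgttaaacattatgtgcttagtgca
Hmcn2, chr2:31314082-31314381, plus strand: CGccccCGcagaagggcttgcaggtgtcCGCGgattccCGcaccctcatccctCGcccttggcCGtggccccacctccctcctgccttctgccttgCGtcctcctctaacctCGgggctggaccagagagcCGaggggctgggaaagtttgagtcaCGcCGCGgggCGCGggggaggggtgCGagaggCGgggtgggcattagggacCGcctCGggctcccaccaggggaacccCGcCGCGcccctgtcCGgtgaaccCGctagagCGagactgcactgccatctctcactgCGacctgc
The Reln window was 80.7% G and C and held 47 CG dinucleotides, more than 98.6% of the 32851 mouse promoter windows, whose medians were 52.7% and 7. The Igfn1 window was 48.7% G and C and held 2 CG dinucleotides. The Hmcn2 window lay between them, at 70.7% and 26 CG dinucleotides. Searched on both strands, none of the 3 windows held TAATTA, a paired-type homeodomain sequence, TAATCC, an Otx-type homeodomain sequence, or ATTGTT, a Sox-type sequence, which occurred in 5.29%, 7.06% and 10.7% of all windows. Over all 11 windows of the 7 genes, TAATTA occurred in 1 Vldlr window and ATTGTT in the Hmcn1 window.

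Reln was highest in Vsx1-only cells, intermediate in Sox6-only cells and low in Ddit4l-only cells. The Reln gene spans chr5:21884454-22344705. In Vsx1-only cells its means in retinas 1la, 1Ra, 2la and 2Ra were 949, 987, 712 and 773 TPM. In Ddit4l-only cells the means in the same order of retinas were 6.53, 29.4, 31.7 and 23.3 TPM, and in Sox6-only cells they were 208, 182, 213 and 136 TPM. No retina of one group overlapped a retina of another. Over mice the means were 855 ± 159 TPM in Vsx1-only, 22.7 ± 6.74 TPM in Ddit4l-only and 185 ± 14.3 TPM in Sox6-only cells (SD, n = 2 mice). The fitted log2 fold change was 2.48 ± 0.37 (SE) for Vsx1-only over Sox6-only cells, -3.05 ± 0.38 for Ddit4l-only over Sox6-only cells and 5.53 ± 0.42 for Vsx1-only over Ddit4l-only cells. These come from edgeR fitted to counts summed per mouse and group, in which 0% of the 16646 genes tested were called for Vsx1-only over Sox6-only cells, 0% for Ddit4l-only over Sox6-only cells and 0.0421% for Vsx1-only over Ddit4l-only cells (adjusted p under 0.05, log2 fold change of 1 or more in size). At an unadjusted p under 0.05 there were 1429, 1342 and 2141 genes, and DESeq2 on the same sums called 853, 762 and 1615. The 8 genes were chosen on these contrasts, and nothing is read from their share of calls.

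The share of cells and the level within them both differed for Reln. It reached 20 TPM in 58 of 60 Vsx1-only cells, 12 of 59 Ddit4l-only cells and 113 of 151 Sox6-only cells. Among the cells at or above that level the median was 865 TPM in Vsx1-only, 100.4 TPM in Ddit4l-only and 174 TPM in Sox6-only cells. In Vsx1-only cells Reln ran from 0 to 2092 TPM with a median of 833. By retina, 100% of Vsx1-only cells passed in 1la and 1Ra, 92.9% in 2la and 91.7% in 2Ra. Sox6-only cells spread more widely, from 0 to 1276 TPM with quartiles at 20.2 and 291 TPM, and 66.7% to 80.4% of them passed in a retina.

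**Figure D1:**
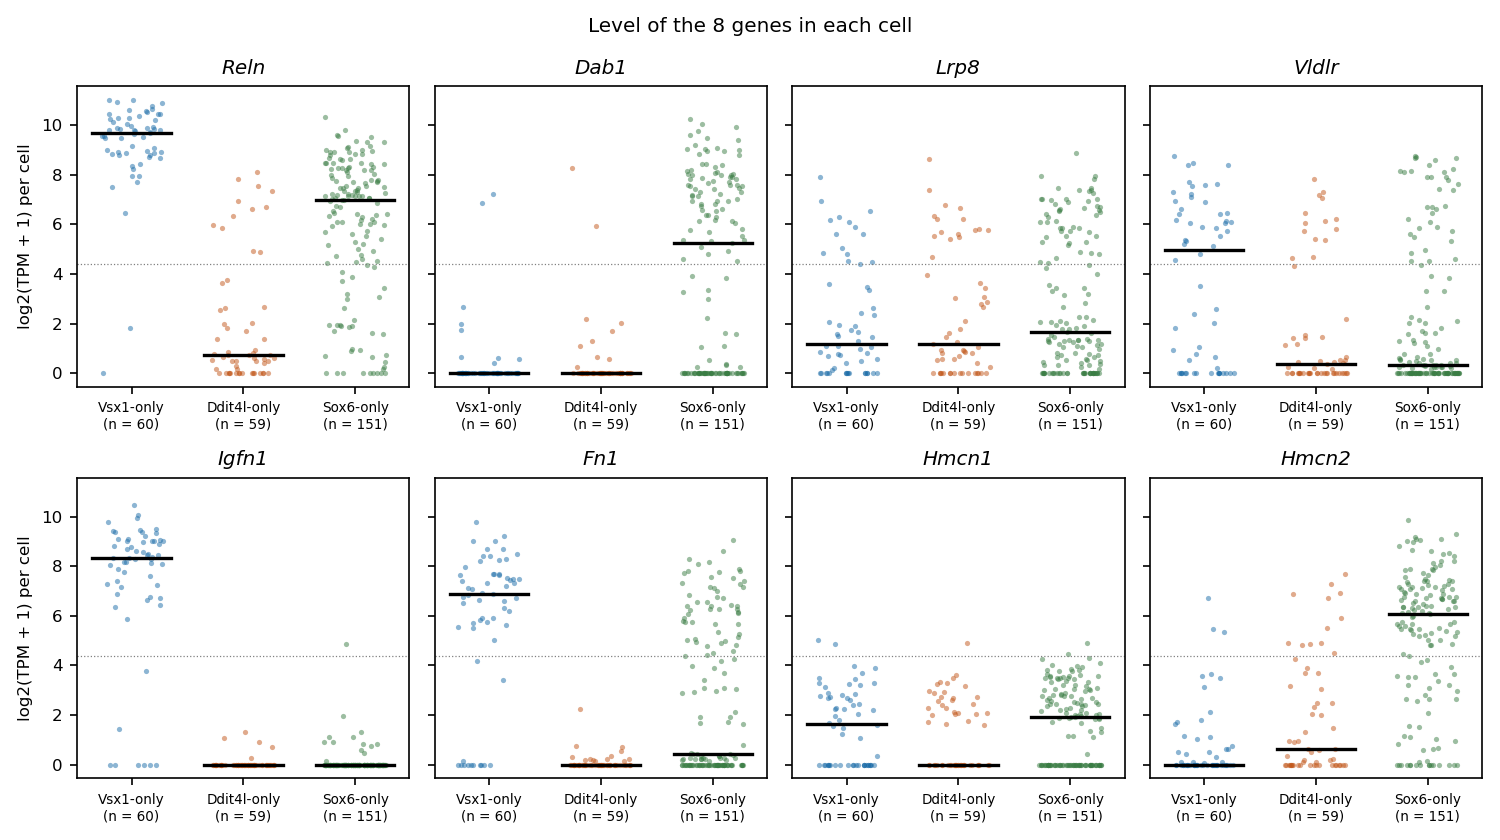
Level of each gene in each cell as log2(TPM + 1), for Vsx1-only (n = 60), Ddit4l-only (n = 59) and Sox6-only (n = 151) cells, with the median as a black bar and 20 TPM as a dotted line. Reln, Igfn1 and Fn1 lie highest in Vsx1-only cells, Dab1 and Hmcn2 in Sox6-only cells, and Hmcn1 stays low in all groups.

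Among the receptors, the Vsx1-only cells had the highest mean of Vldlr and the lowest mean of Lrp8, with overlapping retinas for both. Vldlr, a receptor of the LDL receptor family at chr19:27216480-27254231, had means of 74, 20.3, 126 and 62.5 TPM in Vsx1-only cells of 1la, 1Ra, 2la and 2Ra. It had 4.36, 34.2, 19.5 and 14.4 TPM in Ddit4l-only cells and 47, 25.8, 40.8 and 53.9 TPM in Sox6-only cells of the same retinas. The groups overlapped, since Vsx1-only cells of 1Ra, at 20.3 TPM, lay below every Sox6-only retina and below the Ddit4l-only cells of 1Ra. Vldlr reached 20 TPM in 53.3% of Vsx1-only, 23.7% of Ddit4l-only and 23.8% of Sox6-only cells. In the cells that passed, the median was 84.5 TPM in Vsx1-only, 67.2 TPM in Ddit4l-only and 137 TPM in Sox6-only cells. The fitted log2 fold change was 1.15 ± 0.34 (SE) for Vsx1-only over Sox6-only cells, -0.97 ± 0.34 for Ddit4l-only over Sox6-only cells and 2.12 ± 0.35 for Vsx1-only over Ddit4l-only cells. Without 1Ra the last was 3.29 and that for Ddit4l-only over Sox6-only cells was -1.97.

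Lrp8, the other reelin receptor at chr4:107802200-107876840, had means of 36.5, 13, 5.62 and 12.5 TPM in Vsx1-only cells of 1la, 1Ra, 2la and 2Ra. The means were 25.3, 37.6, 20.8 and 12 TPM in Ddit4l-only and 34.8, 30.3, 53.2 and 21.6 TPM in Sox6-only cells. The ranges of the 3 groups overlapped, and over all cells of a group the means were 17.4 TPM in Vsx1-only, 25.4 TPM in Ddit4l-only and 35.8 TPM in Sox6-only cells. Lrp8 passed 20 TPM in 25% of Vsx1-only, 27.1% of Ddit4l-only and 34.4% of Sox6-only cells. The log2 fold change was -1.19 ± 0.41 (SE) for Vsx1-only over Sox6-only cells and ranged between -2.18, without cells rich in rod transcripts (summed rod markers of 1000 TPM or more), and -0.57, without 2la.

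Dab1, the adaptor, was highest in Sox6-only cells among the 3 groups. The gene spans chr4:103619500-104744844. Its means were 0.0319, 0, 0.835 and 22.2 TPM in Vsx1-only cells of 1la, 1Ra, 2la and 2Ra, and 0.16, 0.187, 3.18 and 31.7 TPM in Ddit4l-only cells. In Sox6-only cells they were 160, 129, 171 and 95.7 TPM, above every retina of the other groups. Dab1 reached 20 TPM in 2 of 60 Vsx1-only, 2 of 59 Ddit4l-only and 81 of 151 Sox6-only cells. Of the Sox6-only cells 55 were at 0 TPM, and the 81 that passed had a median of 188 TPM and a maximum of 1227 TPM. Of the 33 cells with none of the markers 6 also passed. The share of Sox6-only cells that passed was 46.7% and 42.9% in 1Ra and 2Ra, against 57.6% and 65.2% in 1la and 2la. The fitted log2 fold change was -8.70 ± 2.86 (SE) for Vsx1-only over Sox6-only cells and -7.50 ± 2.81 for Ddit4l-only over Sox6-only cells. These sizes are unstable because mouse 1 had 0.0308 and 0.108 CPM (counts scaled to library size) in the groups on top, and without the mouse term they were -4.86 and -3.57. Without the cells rich in rod transcripts they were -6.45 and -10.82, and without 2Ra the first was -10.94. The 2 Vsx1-only cells with Dab1 had a mean summed rod marker level of 4658 TPM, against 2328 TPM in the other 58, and the 2 such Ddit4l-only cells had 6318 TPM, against 1071 TPM in the other 57. The mean summed Müller glia level was 5471 TPM in the 2 Vsx1-only cells, against 233 TPM in the other 58, and their mean summed level of 8 vascular and mesenchymal markers was 50.3 TPM, against 1.11 TPM. The 2 Ddit4l-only cells had 191 TPM of the Müller glia markers, against 125 TPM for the other 57, and 34 TPM of the vascular and mesenchymal markers, against 1.04 TPM. The 81 Sox6-only cells with Dab1 had a mean Müller glia level of 248 TPM, against 185 TPM for the other 70. Their mean rod level was 1705 TPM, against 2205 TPM. The medians were 150 TPM against 60.3 TPM for Müller glia markers and 128 TPM against 177 TPM for rod markers. Median total counts were 1111280 in the 81 cells, against 997763 in the other 70. The mean summed amacrine marker level was 391 TPM in the 2 Ddit4l-only cells with Dab1, against 27.6 TPM in the other 57. It was 43.8 TPM in the 81 Sox6-only cells, against 16 TPM, but 0.66 TPM in the 2 Vsx1-only cells, against 10.8 TPM. Median genes detected were 8606 against 6317 in Ddit4l-only, 6423 against 6192 in Sox6-only and 8696.5 against 6431.5 in Vsx1-only cells with and without Dab1. The part of Müller glia, amacrine and vascular transcripts in the result was not tested.

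Receptors and adaptor were combined within cells. Neither receptor reached 20 TPM in 20 of 60 Vsx1-only, 32 of 59 Ddit4l-only and 75 of 151 Sox6-only cells. One of them did in 33, 24 and 64 cells of the groups in that order, and both did in 7, 3 and 12 cells. Dab1 together with a receptor was seen in 1 Vsx1-only, 2 Ddit4l-only and 45 Sox6-only cells. Within the 151 Sox6-only cells, 66 had Reln and Dab1 both at 20 TPM, 47 had Reln alone, 15 had Dab1 alone and 23 had neither. The Pearson correlation of log2(TPM + 1) between Reln and Dab1 across these cells was 0.13, and that between Lrp8 and Vldlr was -0.03, over cells that share plates and depth.

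**Figure D2:**
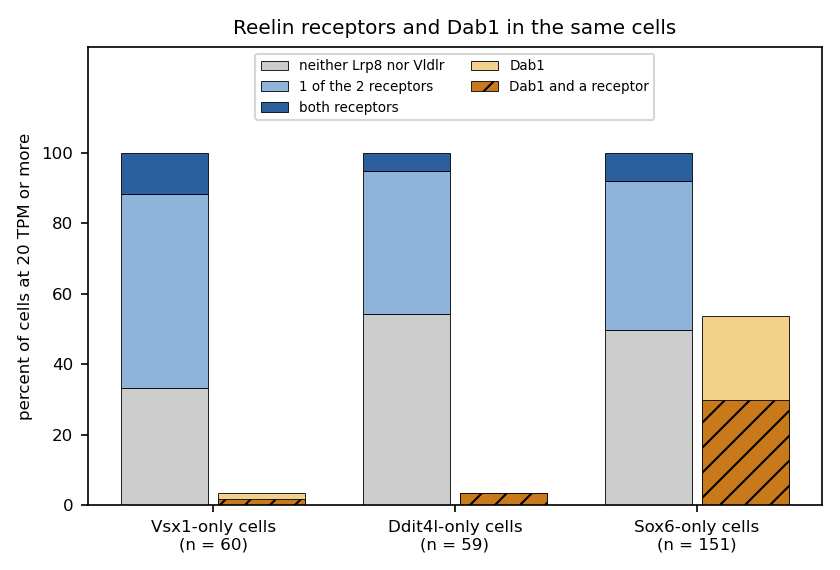
Percent of cells at 20 TPM or more for neither, 1 or both of Lrp8 and Vldlr (left, stacked bars), and for Dab1 with the hatched part for Dab1 and a receptor together (right, bars drawn over each other). Cells with a receptor are found in all groups, while Dab1 is found in 2 of 60 Vsx1-only, 2 of 59 Ddit4l-only and 81 of 151 Sox6-only cells.

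Igfn1 separated the groups most sharply. The gene spans chr1:135953205-136040925. Its means were 390, 447, 355 and 215 TPM in Vsx1-only cells of 1la, 1Ra, 2la and 2Ra. In Ddit4l-only cells they were 0.065, 0, 0.186 and 0 TPM, and in Sox6-only cells 0.09, 0, 0.676 and 0.133 TPM. Every retina of Vsx1-only cells lay far above all others, and the other groups overlapped. Vsx1-only cells held 32252 expected counts of Igfn1, Ddit4l-only cells 6 and Sox6-only cells 146. It passed 20 TPM in 52 of 60 Vsx1-only cells, in 0 of 59 Ddit4l-only cells and in 1 of 151 Sox6-only cells, which had 27.9 TPM. Outside the groups, it passed in 6 of the 33 cells with none of the markers, with a maximum of 639 TPM. It also passed in 4 of the 18 cells with several. The fitted log2 fold change was 10.07 ± 1.5 (SE) for Vsx1-only over Sox6-only cells and 12.89 ± 1.73 for Vsx1-only over Ddit4l-only cells, sizes that rest on very few counts in the lower group. Nothing is read from a fold between Ddit4l-only and Sox6-only cells, which were both close to 0.

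Fn1 was highest in Vsx1-only cells, lower in Sox6-only cells and close to 0 in Ddit4l-only cells. The gene spans chr1:71585473-71653280. Its means were 199, 105, 269 and 71.6 TPM in Vsx1-only cells of 1la, 1Ra, 2la and 2Ra. They were 0.039, 0, 0.327 and 0.013 TPM in Ddit4l-only cells and 53.2, 35.7, 64.2 and 18.6 TPM in Sox6-only cells. The lowest Vsx1-only retina, at 71.6 TPM, lay just above the highest Sox6-only retina, at 64.2 TPM. Fn1 passed 20 TPM in 47 of 60 Vsx1-only, 0 of 59 Ddit4l-only and 54 of 151 Sox6-only cells, whose median was 162 TPM in the Vsx1-only and 82.7 TPM in the Sox6-only cells that passed. The log2 fold change was 1.87 ± 0.70 (SE) for Vsx1-only over Sox6-only cells, -8.59 ± 0.97 for Ddit4l-only over Sox6-only cells and 10.46 ± 1.03 for Vsx1-only over Ddit4l-only cells. The last 2 rest on 49 expected counts in Ddit4l-only cells, and without 2la they were -10.82 and 12.72.

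Fibronectin is also a transcript of vessel and mesenchymal cells, so their markers were read in the same cells. The summed mean of 8 such markers per retina was 0.719 to 9.12 TPM in Vsx1-only, 0.598 to 6.84 TPM in Ddit4l-only and 0.777 to 8.12 TPM in Sox6-only cells. None of the 8 had a median of 1 TPM in any group, and Cldn5 and Cdh5 of endothelium and Cspg4 of pericytes were at 0 in all 3 groups. Pecam1, Kdr, Rgs5 and Acta2 had means above 0 in each group. The highest was 1.69 TPM (Kdr) in Vsx1-only, 1.51 TPM (Kdr) in Ddit4l-only and 1.72 TPM (Rgs5) in Sox6-only cells. In the 47 Vsx1-only cells with Fn1 at 20 TPM the mean sum was 3.31 TPM, against 0.694 TPM in the other 13, and in the 54 Sox6-only cells with Fn1 it was 1.1 TPM, against 5.13 TPM in the other 97. Müller glia markers were higher in the cells with Fn1. Their median sum was 192 TPM in the 47 Vsx1-only cells with Fn1, against 56.5 TPM in the other 13, and 144 TPM in the 54 Sox6-only cells with Fn1, against 71.3 TPM in the other 97. In Ddit4l-only cells, none of which passed for Fn1, it was 5.64 TPM. Higher medians were not particular to Fn1. In Sox6-only cells the median sum was 128 TPM with Hmcn2 at 20 TPM and 80.2 TPM without. For Reln it was 118 TPM with and 90.5 TPM without, but the mean went the other way, at 176 and 346 TPM. Median total counts were 1134160 in the 54 Sox6-only cells with Fn1, against 1007580 in the other 97. The part of Müller glia transcripts and of depth in the Fn1 values was not tested.

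Of the hemicentins, Hmcn2 was highest in Sox6-only cells and Hmcn1 was low everywhere. Hmcn2, at chr2:31314255-31460738, had means of 0.905, 6.97, 3.49 and 4.74 TPM in Vsx1-only cells of 1la, 1Ra, 2la and 2Ra. It had 36.4, 6.08, 16.8 and 22.5 TPM in Ddit4l-only and 116, 166, 116 and 68.9 TPM in Sox6-only cells. All Sox6-only retinas lay above all others, and Vsx1-only and Ddit4l-only cells overlapped only through 1Ra. Hmcn2 passed 20 TPM in 3 of 60 Vsx1-only, 12 of 59 Ddit4l-only and 103 of 151 Sox6-only cells. The log2 fold change was -4.97 ± 0.29 (SE) for Vsx1-only over Sox6-only cells, -2.69 ± 0.26 for Ddit4l-only over Sox6-only cells and -2.28 ± 0.26 for Vsx1-only over Ddit4l-only cells. Leaving out a retina gave -5.95 (without 1Ra) to -4.33 (without 1la) for the first and -3.40 (without 1Ra) to -1.57 (without 1la) for the last. Hmcn1, the other hemicentin at chr1:150562500-150993652, averaged 4.19 TPM in Vsx1-only, 2.97 TPM in Ddit4l-only and 4.24 TPM in Sox6-only cells, from 77, 55 and 191 counts in all. At this depth no difference of Hmcn1 between the groups was detectable. In Vsx1-only cells Hmcn2 averaged 4.09 TPM from 815 counts, so the TPM of the hemicentins are not compared with each other.

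**Figure D3:**
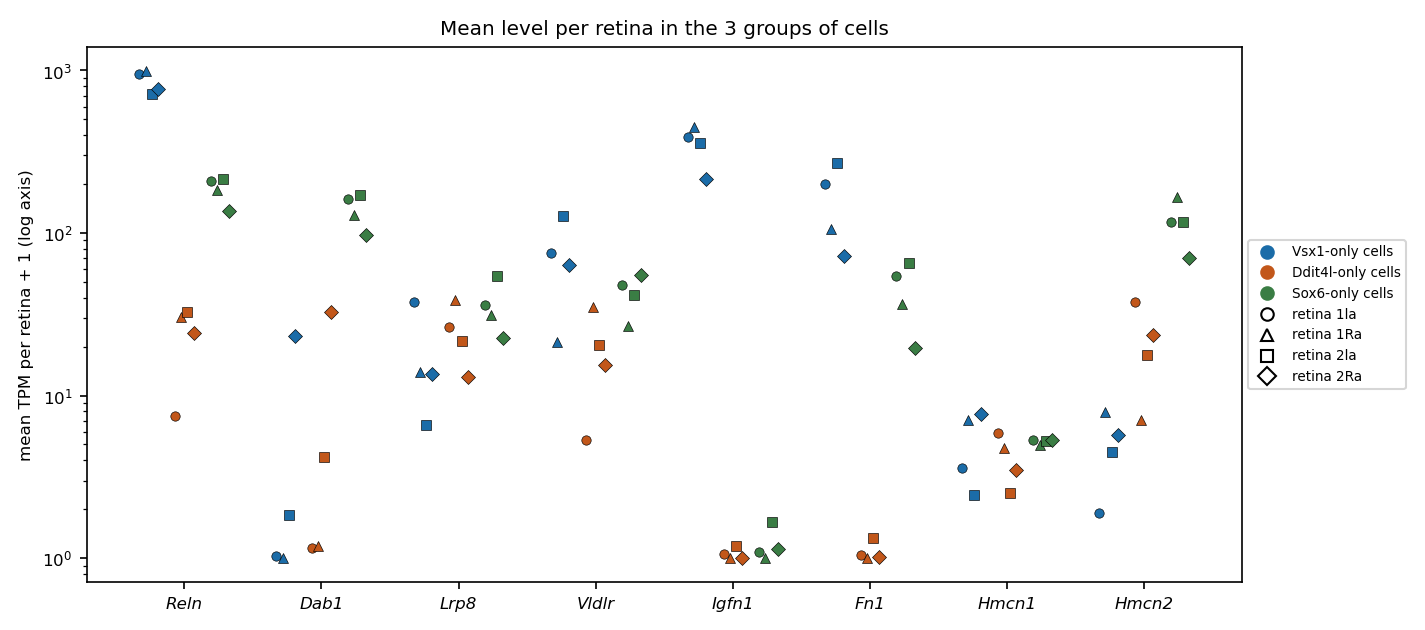
Mean TPM of each gene per retina plus 1, on a log axis, with Vsx1-only, Ddit4l-only and Sox6-only cells from left to right within each gene and 1 symbol per retina. The 4 retinas of Vsx1-only cells lie above all others for Reln, Igfn1 and Fn1, and those of Sox6-only cells for Dab1 and Hmcn2, while the groups overlap for Lrp8, Vldlr and Hmcn1.

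Within Vsx1-only cells, Igfn1 and Fn1 were mostly present in the same cells. Both reached 20 TPM in 46 of 60 cells, Igfn1 alone in 6, Fn1 alone in 1 and neither in 7. The 7 cells with neither came from all 4 retinas, and 5 of them had Reln at 20 TPM, with a median over the 7 of 724 TPM, against 865 TPM in the 46 cells with both. Across the 60 cells the Pearson correlation of log2(TPM + 1) was 0.67 between Igfn1 and Fn1, 0.47 between Reln and Igfn1 and 0.36 between Reln and Fn1, and Spearman's rho was 0.47, 0.25 and 0.23. Among the 52 cells with Igfn1 at 20 TPM, Pearson's r between Igfn1 and Fn1 was 0.19. The larger value rests on the cells in which one or both were low or absent. The correlations varied between retinas 1la, 1Ra, 2la and 2Ra, with 16, 18, 14 and 12 cells. For Reln and Igfn1 r was 0.16, -0.09, 0.59 and 0.80, and rho was 0.19, -0.07, 0.06 and 0.76. For Igfn1 and Fn1 r was 0.84, 0.37, 0.94 and 0.60, and rho was 0.38, 0.40, 0.54 and -0.06. For Reln and Fn1 r was 0.29, 0.06, 0.65 and 0.82, and rho was 0.29, -0.15, 0.55 and 0.20. Median total counts were 1113840 in the 47 cells with Fn1 at 20 TPM, against 926208 in the other 13.

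Sox6-only cells varied in how many of Reln, Dab1, Fn1 and Hmcn2 they held. All 4 reached 20 TPM in 21 of 151 cells, 3 in 47, 2 in 52, 1 in 22 and none in 9. Hmcn2 and Fn1 had the highest correlation among these 4 genes, with a Pearson's r of 0.26, and were both at 20 TPM in 45 cells.

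**Figure D4:**
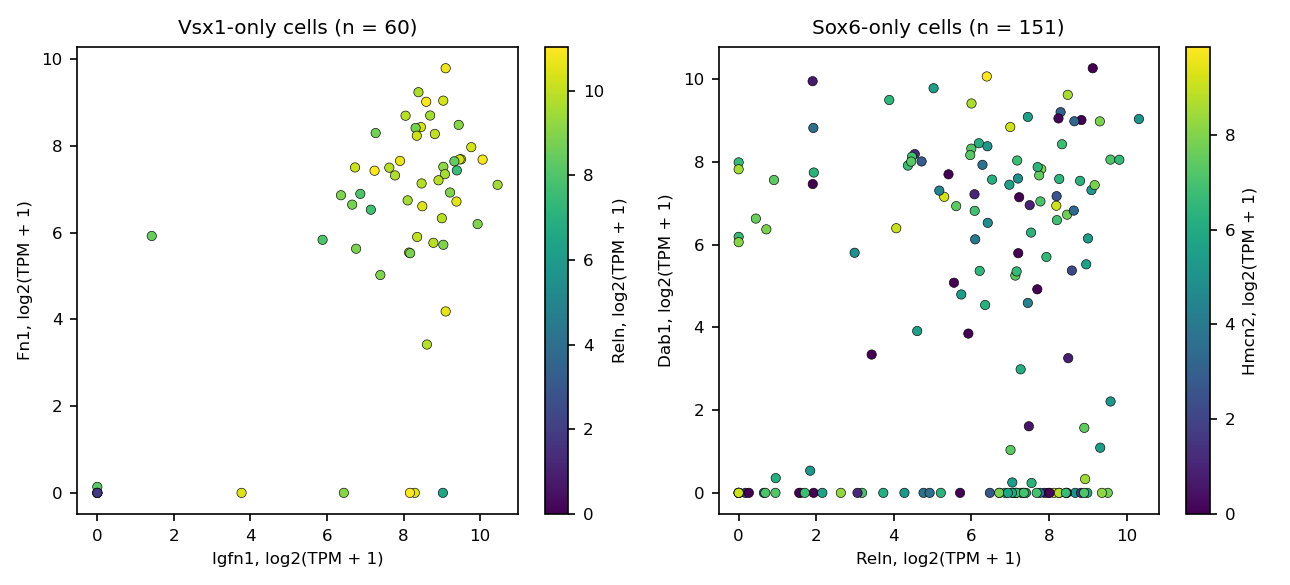
Each point is 1 cell, with axes and colour as log2(TPM + 1): Fn1 against Igfn1 coloured by Reln in Vsx1-only cells (left), and Dab1 against Reln coloured by Hmcn2 in Sox6-only cells (right). Most Vsx1-only cells sit in 1 cloud with Igfn1 and Fn1 both present (46 of 60), while Sox6-only cells with and without Dab1 are found at all levels of Reln.

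The genes whose profile over the 12 sums of group and retina was most like that of Reln were Sox5, a transcription factor (r = 0.97), Plekhb2 (r = 0.97) and Gnb3, a G protein beta subunit of bipolar cells and cones (r = 0.96), out of 3862 genes with a mean of at least 50 CPM. Sox5 had 279 CPM in Vsx1-only, 2.58 CPM in Ddit4l-only and 38.3 CPM in Sox6-only cells. Plekhb2 had 767, 324 and 576 CPM and Gnb3 had 3666, 646 and 2140 CPM in that order, smaller differences than those of Sox5 and Reln. The nearest to Igfn1 were Bmp7, a secreted growth factor (r = 0.98), the adhesion gene Pcdh9 (r = 0.97) and Sec1 (r = 0.96), and Bmp7 had 168, 4.54 and 4.31 CPM in the groups in that order. The nearest to Fn1 were Il1rapl2 (r = 0.98), the ephrin receptor Epha4 (r = 0.98) and the adenylyl cyclase Adcy2 (r = 0.97), and Il1rapl2 had 225 CPM in Vsx1-only, 0.277 CPM in Ddit4l-only and 143 CPM in Sox6-only cells. The nearest to Hmcn2 were Wfdc1 (r = 0.96), the potassium-dependent sodium-calcium exchanger Slc24a3 (r = 0.95) and Thrap3 (r = 0.93), and Wfdc1 had 2.41, 19 and 146 CPM in the groups in that order. These are Pearson correlations of log2(CPM + 1) over sums that share mice and groups. They do not measure the size of a difference. Pcdh9 had 810, 190 and 150 CPM and Thrap3 had 78.6, 102 and 145 CPM in Vsx1-only, Ddit4l-only and Sox6-only cells.

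Wider gene lists were read for the same contrasts, with 131 genes tested from 5 lists. With edgeR on sums per mouse none was called in any of the 3 contrasts. An unadjusted p under 0.05 was found for 19 list genes for Vsx1-only over Sox6-only cells. It was found for 14 for Ddit4l-only over Sox6-only and 26 for Vsx1-only over Ddit4l-only cells. The numbers at that p over all 16646 genes tested are given with Reln above. The lists were not tested as sets, and nothing is read from these numbers. The list of reelin signalling genes had 43 tested, and their median log2 fold change was -0.10 for Vsx1-only over Sox6-only cells (all genes, -0.05), -0.19 for Ddit4l-only over Sox6-only cells (all genes, -0.08) and -0.16 for Vsx1-only over Ddit4l-only cells (all genes, 0.01). The 40 extracellular matrix genes tested had medians of -0.72, -0.87 and 0.90 in the same contrasts. The 20 LDL receptor family genes had medians of 0.06, 0.00 and 0.08, and the 17 integrins and syndecans had -0.32, -0.07 and 0.37. The 11 muscle immunoglobulin and fibronectin type III genes had 0.20, -1.93 and 2.32. Some genes of these lists were near 0. Flnc of the muscle list had 0.351 CPM in Vsx1-only, 0.018 CPM in Ddit4l-only and 0.75 CPM in Sox6-only cells. Tnxb of the matrix list had 0, 0.611 and 1.16 CPM in that order. The medians are therefore not read as a shift of a whole list.

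With DESeq2 on the same sums, 15 list genes (9 higher, 6 lower), 14 (5 higher, 9 lower) and 26 (16 higher, 10 lower) were called in the 3 contrasts, where 5.12%, 4.58% and 9.7% of all genes were called. With edgeR on sums per retina, in which both retinas of 1 animal enter as separate samples, 2, 2 and 7 of 106 list genes were called. In these sums 0.296% of 14508 genes were called higher and 0.51% lower for Vsx1-only over Sox6-only cells, 0.159% higher and 0.393% lower for Ddit4l-only over Sox6-only cells, and 1.28% higher and 1.02% lower for Vsx1-only over Ddit4l-only cells. None of the 41 reelin signalling genes tested in them was called. The genes called there, named after their values were seen, had no adjusted p under 0.05 with edgeR on the sums per mouse. DESeq2 on the sums per mouse gave each of them an adjusted p under 0.05, the largest being 0.000323 for Agrn. Lrp1, a large endocytic receptor of the LDL receptor family, had 75.6 ± 24.7 CPM in Vsx1-only, 77.1 ± 31.7 CPM in Ddit4l-only and 5.26 ± 2.67 CPM in Sox6-only cells (SD, n = 2 mice). Ncan, a chondroitin sulphate proteoglycan of the brain matrix, had 33.7 ± 2.71 CPM in Vsx1-only, 198 ± 20.7 CPM in Ddit4l-only and 185 ± 15.5 CPM in Sox6-only cells. Sparc, a secreted matrix-binding protein, had 318 ± 51.2, 15.1 ± 12.4 and 57 ± 0.375 CPM, and Palld, an actin-binding protein with immunoglobulin domains, had 214 ± 11.1, 4.62 ± 4.39 and 15 ± 1.85 CPM in the groups in that order. Speg, Mypn, Spock2 and Agrn were the others called in sums per retina.

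The retinas of a mouse gave a comparison that had no part in choosing the genes, Ra over la within each group of cells. Fn1 was lower in the Ra than in the la retina of both mice, in Vsx1-only and in Sox6-only cells alike. In Vsx1-only cells it had 105 TPM in 1Ra and 71.6 TPM in 2Ra, against 199 TPM in 1la and 269 TPM in 2la. In Sox6-only cells it had 35.7 TPM in 1Ra and 18.6 TPM in 2Ra, against 53.2 TPM in 1la and 64.2 TPM in 2la. With edgeR the log2 fold change was -1.25 ± 0.32 (SE, adjusted p = 0.965, unadjusted p = 0.0235) in Vsx1-only and -1.07 ± 0.38 (adjusted p = 0.802, unadjusted p = 0.0556) in Sox6-only cells, with the mouse as a block. DESeq2 gave an adjusted p of 0.0159 in Vsx1-only and 0.0893 in Sox6-only cells. By edgeR 0% of 13309 genes were called in Vsx1-only, 0% of 12961 in Ddit4l-only and 0% of 15745 in Sox6-only cells, with 639, 524 and 963 at an unadjusted p under 0.05, and by DESeq2 2.02%, 2.35% and 2.77% were called. None of the other 7 genes was called by either tool in any group in which it could be tested. Lower means in the Ra retina of both mice were not particular to Fn1. Reln, Dab1 and Lrp8 in Sox6-only and Vldlr in Vsx1-only cells had them too, as did Igfn1 in Ddit4l-only and Sox6-only cells, close to 0. Hmcn1 and Hmcn2 in Vsx1-only and Dab1 in Ddit4l-only cells were higher in both. Kcng4 was lower in all 3 groups, at 290 (1Ra) and 168 TPM (2Ra) against 305 (1la) and 309 TPM (2la) in Sox6-only cells. Reln had a log2 fold change of -0.13 ± 0.29 (SE, adjusted p = 0.993 by edgeR) in Vsx1-only and -0.42 ± 0.18 (adjusted p = 0.808) in Sox6-only cells. The Ra retinas also had the lower total counts given above. The median mitochondrial share over all cells of a retina was 4.26% in 1Ra and 4.88% in 2Ra, against 2.06% in 1la and 2.14% in 2la, and the part of depth and mitochondrial share in the Fn1 values was not tested.

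**Figure D5:**
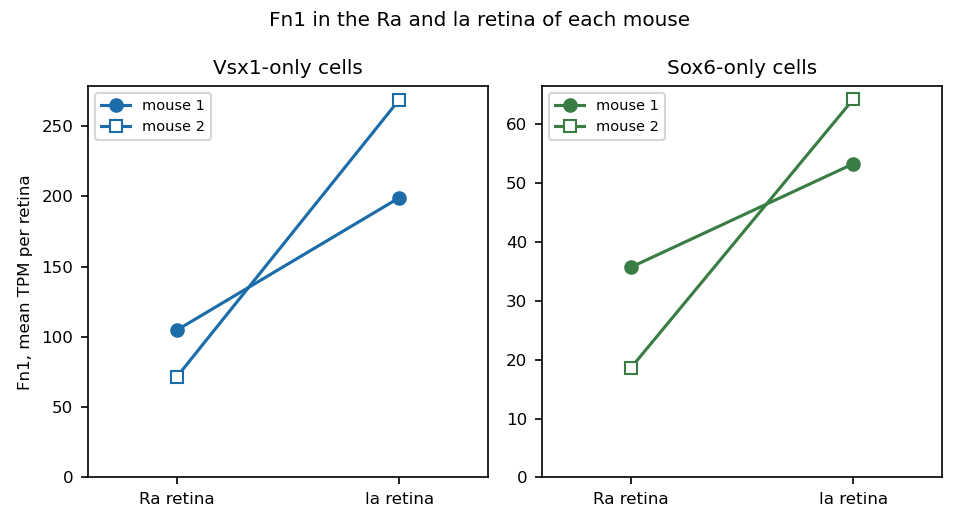
Mean TPM of Fn1 in the Ra and la retina of each mouse, with a line joining the retinas of 1 mouse, for Vsx1-only (left) and Sox6-only (right) cells. The Ra value is below the la value in both mice and both groups, at 71.6 and 105 TPM against 199 and 269 TPM in Vsx1-only cells.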

How the data were processed

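The files hold Smart-seq2 data of 383 cells. The submitters' processing notes name RSEM 1.2.28, TopHat2 2.0.10 and mm10; the annotation is not given in the sources used here. The authors deposited RSEM expected counts, not normalised, and TPM, scaled to a fixed total per cell, for 32813 genes. One well of retina 1la was not analysed here. The genes and lists were chosen with earlier results of these data known.

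Expected counts were rounded and summed per mouse and group (6 sums). edgeR 4.0.16 (R 4.3.3, limma 3.58.1; TMM, filterByExpr, quasi-likelihood) was run with the mouse as a block, since all groups came from the same animals; same-mouse deviations correlated at 0.026 to 0.066. A gene was called at a Benjamini-Hochberg adjusted p under 0.05 with a log2 fold change of 1 or more in size. DESeq2 1.42.0 was an alternative. Ra and la were compared in retina sums. Cells were not treated as replicates. Shares and levels per cell used TPM, and correlations used log2(TPM + 1) or log2(CPM + 1). Each gene's TPM is an average over cells, so fewer cells with a transcript and less of it per cell both lower it. Counting did not use strand as far as the sources say; exons of other genes overlapped 1.04% of Reln, 2.50% of Fn1 and 1.88% of Hmcn1 exon bases in GENCODE M21 and none of the other members. Named genes were the members, called list genes, and the 3 nearest profiles for each of 4 members.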

Additional observations from a re-analysis of the deposited data

Results flagged for a closer look

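Of 24 sets of 4 retina means (8 genes in 3 groups), 3 had a retina far from the others by Dixon's criterion, which chance meets in about 1 of 20 sets. Dab1 in Vsx1-only cells was 22.2 TPM in 2Ra, against 0 to 0.835 TPM in the other retinas. Dab1 in Ddit4l-only cells was 31.7 TPM in 2Ra, against 0.16 to 3.18 TPM in the others. Fn1 in Ddit4l-only cells was 0.327 TPM in 2la, against 0 to 0.039 TPM in the others, from 49 counts in the whole group. In 2Ra, 2 of 12 Vsx1-only cells had Dab1 at 20 TPM, and in Ddit4l-only cells 1 cell of 2Ra and 1 of 2la did.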

How the results depend on the processing

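The sign of 18 member log2 fold changes of at least 1 in size was the same in 214 of 216 alternatives. One exception was Dab1 for Vsx1-only over Ddit4l-only cells, 4.37 without cells rich in rod transcripts (summed rod markers of 1000 TPM or more) against -1.20. The other was Igfn1 for Ddit4l-only over Sox6-only cells, 1.97 with markers at 50 TPM against -2.82. Igfn1 was near 0 in both of these groups, and Dab1 reached 20 TPM in 2 of 60 Vsx1-only and 2 of 59 Ddit4l-only cells. Nothing is read from the size or sign of these 2 folds. The Igfn1 folds with Vsx1-only cells on top are given for their sign alone. Reln kept 2.32 to 2.73, -3.50 to -2.71 and 5.25 to 5.82 for Vsx1-only over Sox6-only, Ddit4l-only over Sox6-only and Vsx1-only over Ddit4l-only cells. Lrp8 for Vsx1-only over Ddit4l-only cells was -0.52, and 0.19 without 2la. Numbers of genes called varied with the setting. For Vsx1-only over Sox6-only cells they were 0, 16 with no replicate block, 117 in retina sums, 853 with DESeq2, 3 with no filter on low counts and 1 with markers at 50 TPM. For Ddit4l-only over Sox6-only cells they were 0, 2 with no replicate block, 80 in retina sums and 762 with DESeq2. For Vsx1-only over Ddit4l-only cells they were 7, 62 with no replicate block, 333 in retina sums, 1615 with DESeq2, 4 with markers at 50 TPM, 0 without rod-rich cells and 0 (without 1la or 1Ra) to 11 (without 2la) when a retina was left out. List genes called were 2, 2 and 7 in retina sums and 15, 14 and 26 with DESeq2, and 1 for Vsx1-only over Ddit4l-only cells with no replicate block. Ra over la called 269, 304 and 436 genes with DESeq2 in Vsx1-only, Ddit4l-only and Sox6-only cells, and 0 with edgeR with or without the block or the filter and without each retina (an alternative chosen after seeing the data, in which the lone retina is taken to vary like the others). The causes were not tested. When each cell was thinned to 200000 counts, the share of cells with a Dab1 read was 5%, 6.78% and 56.3% in Vsx1-only, Ddit4l-only and Sox6-only cells, against 15%, 16.9% and 63.6% before, and that with an Igfn1 read was 88.3%, 0% and 2.65%, against 90%, 8.47% and 8.61%. With 2 mice, the edgeR tests had few residual degrees of freedom.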

Other observations

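Outside the groups, the 33 cells with none of the markers at 20 TPM had a median Reln level of 96.6 TPM, and 20 of them reached 20 TPM. Among the 62 wells with fewer than 3000 genes, 15 had Reln at 20 TPM and 4 had Dab1. One such well of 1la had 71098 TPM of Dab1, from 859 of its 13160 expected counts and with 689 genes detected, while the next highest of these wells had 243 TPM.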
